A study of Mus musculus with 6 samples.

Results

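Annexins, S100 proteins and the scaffold Ahnak were followed in CCE cells, a mouse embryonic stem cell line, that carried a short hairpin RNA (shRNA) against Prmt6 or against GFP. The genes were taken by name: every probe annotated to Anxa1, Anxa2, Anxa3, Anxa4, Anxa5, Anxa6, S100a6, S100a10, S100a11 or Ahnak, which the array's annotation writes in capitals (ANXA1, ANXA2, ANXA3, ANXA4, ANXA5, ANXA6, S100A6, S100A10, S100A11, AHNAK). Of these 10 genes, 9 had a probe, with 16 probes among the 46643 of the table, and S100a11 was not analysed because no probe carried that name. A detected signal on at least 2 of the 6 arrays was found for 9 probes of 8 genes, and these entered a test of 6539 genes in all. The names were selected on the differences between Prmt6 and GFP shRNA arrays, which were already known, so those differences are described here and not tested. The difference between the Prmt6 hairpins was tested, although it comes from the same Prmt6 shRNA arrays.

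The cells grew without feeders in 15% serum with leukemia inhibitory factor, a cytokine that maintains the undifferentiated state. Plasmids carrying a hairpin and a puromycin resistance gene were introduced by lipid transfection, and puromycin at 1.5 ug/ml was applied from 18 h later for 4 days. The groups were Prmt6 shRNA1, Prmt6 shRNA2 and GFP shRNA, with 2 bead arrays each, and the GFP shRNA cells underwent the same transfection and selection. Nothing in the labels ties the 2 replicates of a group to separate cultures, and p-values therefore cover only the spread among these arrays. Hairpin expression was transient, in a population selected with puromycin.

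Annexins bind acidic phospholipids of membranes when calcium rises, and they take part in membrane repair, vesicle traffic and the attachment of the actin cytoskeleton to membranes. S100 proteins are small EF-hand proteins that act as dimers, and several of them bind an annexin: S100a10 pairs with Anxa2 and S100a11 with Anxa1. Ahnak is a very large scaffold protein that associates with the complex of Anxa2 and S100a10 beneath the plasma membrane. These genes are widely used by adherent, differentiated cells such as epithelia.

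The promoters are shown for 4 genes that carry the contrast described below: Anxa1, which differed between the Prmt6 hairpins, and Anxa2, S100a6 and Ahnak, which were high with both. Each sequence is the 250 bases before the gene start, 5′ to 3′ on the gene's strand, from RefSeq (GRCm38.p6): chr19:20390672-20390921 on the minus strand, and chr9:69453433-69453682, chr3:90612644-90612893 and chr19:8989034-8989283 on the plus strand. Capitals mark matches, on either strand, to the AP-1 site (TGANTCA), the TEAD site (GGAATG), the GC box (GGGCGG), the CCAAT box (CCAAT) or the TATA box (TATAAA).
Anxa1: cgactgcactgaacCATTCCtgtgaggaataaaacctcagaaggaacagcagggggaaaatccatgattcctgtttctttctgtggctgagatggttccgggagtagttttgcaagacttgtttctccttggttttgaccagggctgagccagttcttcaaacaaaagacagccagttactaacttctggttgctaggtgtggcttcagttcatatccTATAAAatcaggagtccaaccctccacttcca
Anxa2: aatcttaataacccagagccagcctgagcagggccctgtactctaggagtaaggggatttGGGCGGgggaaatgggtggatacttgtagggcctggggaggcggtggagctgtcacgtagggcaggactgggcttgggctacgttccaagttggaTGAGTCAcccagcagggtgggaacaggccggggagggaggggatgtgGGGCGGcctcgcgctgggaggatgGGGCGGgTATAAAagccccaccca
S100a6: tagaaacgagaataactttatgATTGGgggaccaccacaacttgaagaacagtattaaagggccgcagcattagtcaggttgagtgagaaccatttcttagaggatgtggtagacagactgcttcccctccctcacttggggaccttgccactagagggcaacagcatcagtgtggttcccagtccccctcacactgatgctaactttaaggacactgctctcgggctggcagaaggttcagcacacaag
Ahnak: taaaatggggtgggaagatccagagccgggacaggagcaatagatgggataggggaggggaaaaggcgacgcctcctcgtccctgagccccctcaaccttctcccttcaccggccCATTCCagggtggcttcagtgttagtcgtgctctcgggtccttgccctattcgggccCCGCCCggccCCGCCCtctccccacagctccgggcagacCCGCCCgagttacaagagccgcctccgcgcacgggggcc

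The 4 windows shared little in these letters. The Anxa1 window held a TATA box beginning 32 bases before the start and a TEAD match at 236 bases. Anxa2 had a TATA box at 17 bases, an AP-1 match at 95 bases and 3 GC boxes. In the Ahnak window there were 3 GC boxes and a TEAD match at 135 bases, and the S100a6 window held a CCAAT box match at 228 bases. Of 32851 mouse promoter windows of the same length, 6.75% held an AP-1 match, 12.6% a TEAD match, 32.7% a GC box, 33.8% a CCAAT box and 12.4% a TATA box. The CG dinucleotide occurred 18 times in the Ahnak window, 9 times in that of Anxa2, 3 times in that of S100a6 and 2 times in that of Anxa1, with a median of 6 over all windows. Of the 10 genes, 7 had an entry in the promoter table.

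Detected probes ranged from 5782 to 10928 over the 6 arrays, and with 2 arrays a group every value has limited precision. Prmt6 shRNA2 replicate 2 had the fewest. Over the 9138 kept probes its Pearson r with the other arrays was 0.824 to 0.890, against 0.939 to 0.973 among the others. This array also had 935 detected probes of the second of 2 probe ID series, against 1302 to 2836 on the other arrays. Of the 8 measured genes, Ahnak alone is represented by a probe of that series. The targeted transcript Prmt6 was at a log2 difference of -1.84 ± 0.37 with both Prmt6 hairpins over GFP shRNA and did not pass the limma test (adjusted p = 0.082). Of 9 embryonic stem cell markers on the array, 8 were measured, among them Pou5f1, Nanog and Sox2, and Tdgf1 was not detected.

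With both Prmt6 hairpins averaged, every measured gene of the group was higher than with GFP shRNA, from Anxa3 at 6.24-fold to S100a10 at 1.58-fold. The order of the log2 differences was Anxa3 (2.64 ± 0.18), Ahnak (2.15 ± 0.17), S100a6 (2.09 ± 0.16), Anxa2 (1.81 ± 0.16), Anxa1 (1.25 ± 0.16), Anxa5 (1.17 ± 0.16), Anxa6 (0.83 ± 0.16) and S100a10 (0.66 ± 0.19), with limma standard errors throughout. The values of Anxa1 and Anxa6 are fitted against arrays on which they were not detected, and they have no firm place in this order. Among the other genes, neighbours from Ahnak to Anxa2 lay within the sum of their standard errors, while Anxa3 stood above Ahnak, Anxa2 above Anxa5 and Anxa5 above S100a10 by more. Among all 6539 genes ranked by this difference, Anxa3 stood at rank 6, Ahnak at 14, S100a6 at 16 and Anxa2 at 35, and S100a10 at 396. The place and rank of Ahnak hold for its brightest probe. Its other kept probe, of the first series, was at 1.38 ± 0.16 (2.60-fold) with every probe tested, below Anxa2. The median over the 8 genes was 1.53, or 1.49 with genes undetected in a group at their lower limit or at 0, against 0.02 over all genes. On all 8 genes the 4 Prmt6 shRNA arrays lay above both GFP shRNA arrays, a pattern shown by 15.8% of all genes. By limma 6 of the 8 were called, against 1.67% of all genes (1.5% higher). Since this contrast helped to choose the names, nothing is read from either count. With each array left out in turn, which leaves 1 array in a group, the median was 1.46 to 1.60. The calls, among these genes and among all genes, depended on which array was left out. None held when a GFP shRNA array was left out. Anxa1 and Anxa6 were kept only through their signal with Prmt6 shRNA1, so they had to differ.

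**Figure D1:**
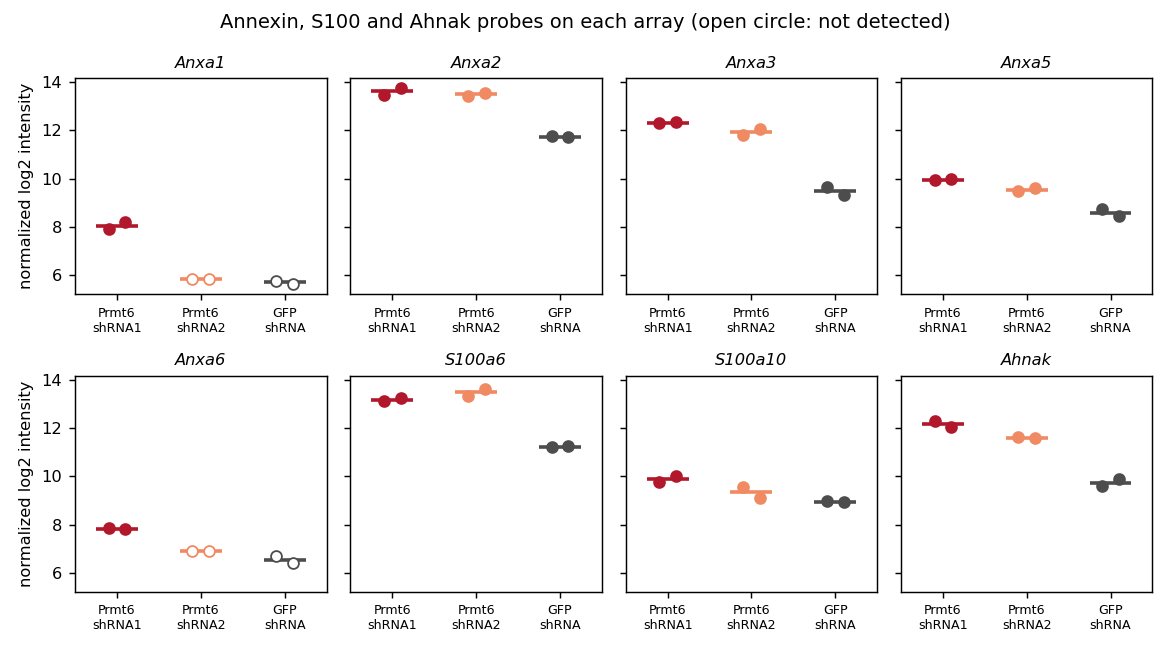
Normalized log2 intensity (vertical axis) of the brightest kept probe of each gene on the 6 arrays, by hairpin group. Circles are arrays, filled where detected and open where not, and lines are group means. Anxa1 and Anxa6 were detected with Prmt6 shRNA1 alone, while Anxa2, Anxa3, S100a6 and Ahnak were high with both Prmt6 hairpins.

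Anxa2, the annexin that links membranes to actin and binds S100a10, was measured by 1 probe (array address 3140402). Its normalized log2 intensities were 13.48 and 13.75 on the Prmt6 shRNA1 arrays, 13.43 and 13.57 on the Prmt6 shRNA2 arrays, and 11.78 and 11.71 on the GFP shRNA arrays. All 4 Prmt6 shRNA arrays were thus well above the GFP shRNA arrays, and the Prmt6 hairpins overlapped. The difference from GFP shRNA was 1.87 ± 0.18 with Prmt6 shRNA1 (3.65-fold) and 1.76 ± 0.18 with Prmt6 shRNA2 (3.38-fold).

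S100a10, the partner of Anxa2, had the lowest difference with both hairpins among the 6 genes detected in every group. Its log2 intensities (array address 6350010) were 9.77 and 10.02 on the Prmt6 shRNA1 arrays, 9.55 and 9.10 on the Prmt6 shRNA2 arrays, and 8.97 and 8.93 on the GFP shRNA arrays. Prmt6 shRNA2 replicate 2 lay only just above the GFP shRNA arrays. The difference was 0.94 ± 0.22 with Prmt6 shRNA1 and 0.38 ± 0.22 with Prmt6 shRNA2. The value with Prmt6 shRNA2 was 0.15 without its replicate 1 and 0.60 without its replicate 2. Within each array, the log2 ratio of Anxa2 to S100a10 stood above its GFP shRNA mean by 0.92 and 0.94 with Prmt6 shRNA1 and by 1.09 and 1.67 with Prmt6 shRNA2, while the GFP shRNA arrays lay 0.02 to either side. The 2 transcripts of the complex therefore changed unequally on all 4 Prmt6 shRNA arrays.

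S100a6, also known as calcyclin and a binding partner of several annexins, stood far above GFP shRNA with either hairpin. Its log2 intensities (array address 1690204) were 13.12 and 13.23 on the Prmt6 shRNA1 arrays, 13.34 and 13.62 on the Prmt6 shRNA2 arrays, and 11.23 and 11.24 on the GFP shRNA arrays. The GFP shRNA arrays were nearly equal, and the Prmt6 hairpins did not overlap. The difference from GFP shRNA was 1.94 ± 0.18 with Prmt6 shRNA1 (3.84-fold) and 2.25 ± 0.18 with Prmt6 shRNA2 (4.75-fold). On the brightest kept probe of each gene, S100a6 alone had a higher mean with Prmt6 shRNA2 than with Prmt6 shRNA1. The first-series probe of Ahnak was also higher with Prmt6 shRNA2.

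Anxa3, an annexin known from neutrophils and from angiogenic cells, had log2 intensities (array address 5570494) of 12.29 and 12.36 on the Prmt6 shRNA1 arrays, 11.79 and 12.08 on the Prmt6 shRNA2 arrays, and 9.67 and 9.31 on the GFP shRNA arrays. The separation between Prmt6 and GFP shRNA arrays was several times the spread within any group. The difference was 2.84 ± 0.21 with Prmt6 shRNA1 (7.14-fold) and 2.44 ± 0.21 with Prmt6 shRNA2 (5.44-fold). With Prmt6 shRNA2 it ranked 5 among all genes and with Prmt6 shRNA1 15, both comparisons sharing the GFP shRNA arrays.

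Anxa5, the phosphatidylserine-binding annexin used as a stain for dying cells, had log2 intensities (array address 1050373) of 9.95 and 9.97 on the Prmt6 shRNA1 arrays, 9.49 and 9.60 on the Prmt6 shRNA2 arrays, and 8.72 and 8.45 on the GFP shRNA arrays. The 3 groups did not overlap, in descending order of Prmt6 shRNA1, Prmt6 shRNA2 and GFP shRNA. The difference from GFP shRNA was 1.37 ± 0.18 with Prmt6 shRNA1 and 0.96 ± 0.18 with Prmt6 shRNA2. The log2 ratio of Anxa3 to Anxa5 within an array stood above its GFP shRNA mean by 1.44 and 1.49 with Prmt6 shRNA1 and by 1.40 and 1.57 with Prmt6 shRNA2, with the GFP shRNA arrays 0.05 to either side.

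Anxa1, also called lipocortin and a ligand of formyl peptide receptors, was detected on both Prmt6 shRNA1 arrays and on no other. Its deposited intensities (array address 2320053) were 163.8 and 346.9 on the Prmt6 shRNA1 arrays, 20.7 and 7.3 on the Prmt6 shRNA2 arrays, and 14.6 and -12.4 on the GFP shRNA arrays. After normalization the log2 values were 7.89 and 8.20 on the Prmt6 shRNA1 arrays, 5.84 and 5.84 on the Prmt6 shRNA2 arrays, and 5.77 and 5.62 on the GFP shRNA arrays. The Prmt6 shRNA2 arrays thus lay beside the GFP shRNA arrays at background. With Prmt6 shRNA1 the level was at least 1.52-fold that with GFP shRNA, taking the lowest detected signal of each GFP shRNA array as the limit, while the fitted difference was 2.35 ± 0.19. No fold is given for Prmt6 shRNA2 over GFP shRNA because neither group was detected. None of 7 formyl peptide receptor genes was detected on any array.

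Anxa6, an annexin with a duplicated core, followed the same order on its one kept probe (array address 2190014). Intensities were 159.9 and 251.2 on the Prmt6 shRNA1 arrays, 138.2 and 99.1 on the Prmt6 shRNA2 arrays, and 95.4 and 75.1 on the GFP shRNA arrays, and only the Prmt6 shRNA1 arrays counted as detected. In log2 units these were 7.86 and 7.79 on the Prmt6 shRNA1 arrays, 6.91 and 6.89 on the Prmt6 shRNA2 arrays, and 6.69 and 6.39 on the GFP shRNA arrays. The level with Prmt6 shRNA1 was at least 1.31-fold that with GFP shRNA (fitted 1.29 ± 0.18). Both further Anxa6 probes were undetected on every array. Anxa4, a close relative found in epithelia, was not measured: a first-series probe was detected on Prmt6 shRNA1 replicate 2 alone, with intensity 115.1 there and 5.0 to 24.9 elsewhere, and a second-series probe with intensities of 43.1 to 182.8 was detected nowhere.

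Ahnak was represented by 5 probes, 2 of them detected on all 6 arrays, and these disagreed on which Prmt6 hairpin was higher. On the brightest probe (array address 102630021, second series) the log2 intensities were 12.28 and 12.05 on the Prmt6 shRNA1 arrays, 11.64 and 11.57 on the Prmt6 shRNA2 arrays, and 9.58 and 9.88 on the GFP shRNA arrays. The other kept probe (array address 6980072, first series) gave 9.81 and 9.93 on the Prmt6 shRNA1 arrays, 10.43 and 10.61 on the Prmt6 shRNA2 arrays, and 8.73 and 8.91 on the GFP shRNA arrays. Both probes separated all 4 Prmt6 shRNA arrays from the GFP shRNA arrays. With Prmt6 shRNA1 the differences from GFP shRNA were 2.43 ± 0.20 on the brightest probe and 1.05 ± 0.18 on the first-series probe, and with Prmt6 shRNA2 they were 1.87 ± 0.20 and 1.70 ± 0.18. Prmt6 shRNA2 minus Prmt6 shRNA1 was therefore -0.56 on the brightest probe and 0.65 on the first-series probe, and neither passed with every probe tested (limma adjusted p = 0.42 and 0.347). Another probe, detected on Prmt6 shRNA1 replicate 2 alone, stood above its GFP shRNA mean by 1.41 and 1.37 with Prmt6 shRNA1 and by 0.48 and 0.17 with Prmt6 shRNA2. The 2 remaining probes were at background everywhere. The transcript position of each probe is not given in the files, so isoforms cannot be assigned.

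**Figure D2:**
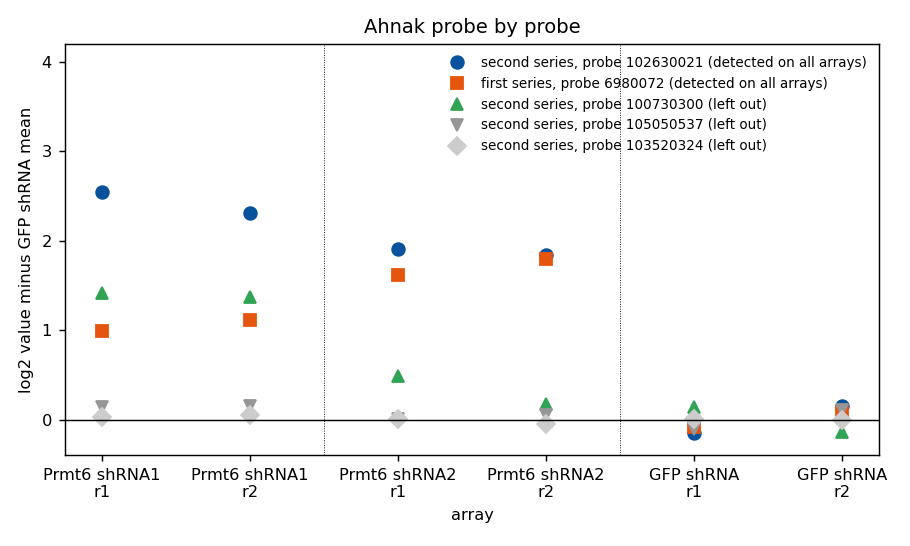
Change of each of the 5 Ahnak probes on each array, as the log2 value minus the probe's GFP shRNA mean (vertical axis), by array (horizontal axis). The 2 probes detected on all arrays coincide on Prmt6 shRNA2 replicate 2 and part by more than 1 log2 unit on the Prmt6 shRNA1 arrays.

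The question of whether the Prmt6 hairpins differed from each other was tested by limma on Prmt6 shRNA2 minus Prmt6 shRNA1, with adjustment over all 6539 genes. Anxa1 was lower with Prmt6 shRNA2, at a log2 difference of -2.21 ± 0.19 (95% interval -2.67 to -1.74, adjusted p = 0.027). Anxa1 entered the test only through its signal on the Prmt6 shRNA1 arrays, so it had to be lower on the others and the test gives no independent support. Since it was undetected with Prmt6 shRNA2, the fold is a lower limit: at least 1.21-fold lower. It was the 1 gene of 8 called, where 0.398% of all genes were called (0.306% lower), and nothing is read from that count. The call was lost without either GFP shRNA array (adjusted p = 0.0913 each), without Prmt6 shRNA1 replicate 1 or 2 (0.227 and 0.165) and without Prmt6 shRNA2 replicate 2 (0.183), and it was kept without Prmt6 shRNA2 replicate 1 (0.00755). Over 18 alternatives it was kept in 8, with adjusted p from 0.0036 to 0.272, and the difference stayed between -4.07 and -1.37.

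The other 7 genes did not pass between the Prmt6 hairpins, and the intervals leave room for differences. Anxa6, also kept only through Prmt6 shRNA1, had a fitted difference of -0.92 ± 0.18 (interval -1.37 to -0.48, limma adjusted p = 0.166), and its limit was at least 1.04-fold lower with Prmt6 shRNA2. S100a10 was at -0.56 ± 0.22 (-1.10 to -0.02, adjusted p = 0.412) and the brightest Ahnak probe at -0.56 ± 0.20 (-1.04 to -0.07, adjusted p = 0.373). Anxa5 was at -0.42 ± 0.18 (-0.86 to 0.03), Anxa3 at -0.39 ± 0.21 (-0.91 to 0.13), Anxa2 at -0.11 ± 0.18 (-0.57 to 0.34) and S100a6 at 0.31 ± 0.18 (-0.14 to 0.75), with limma adjusted p from 0.437 to 0.768. The Prmt6 shRNA2 arrays lay wholly below the Prmt6 shRNA1 arrays for 6 of the 8 genes, against 17.9% of all genes, and wholly above them for S100a6, a pattern of 26.2% of all genes. The 6 include Anxa1 and Anxa6, which the filter kept through Prmt6 shRNA1, and Ahnak on its brightest probe, while its first-series probe lay wholly above. The count therefore does not describe the genes as a set. The median over the 8 genes was -0.49, or -0.33 with undetected genes at their limits, against 0.06 over all genes.

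**Figure D3:**
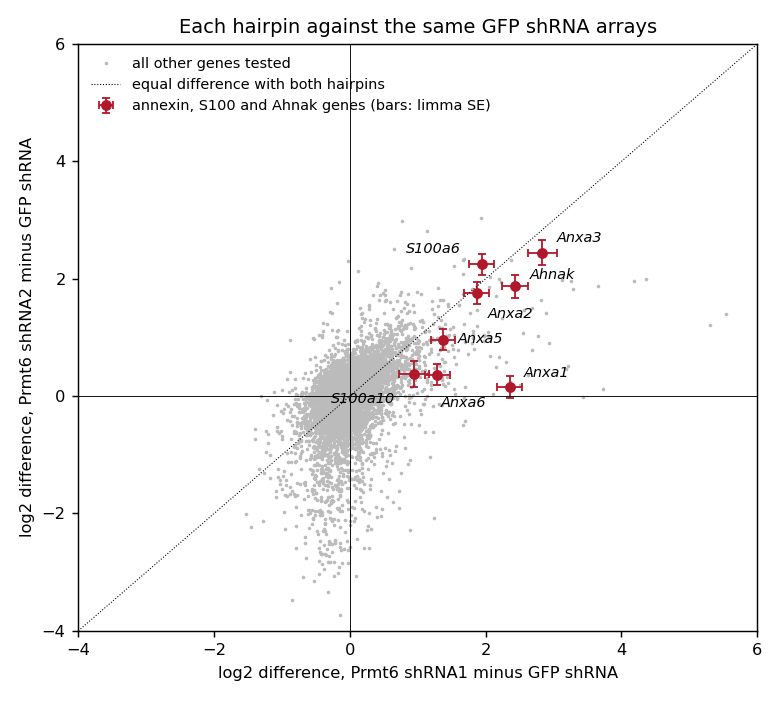
Log2 difference from GFP shRNA with Prmt6 shRNA1 (horizontal axis) and Prmt6 shRNA2 (vertical axis) for all genes tested (grey) and the 8 measured genes (red, with limma standard errors). The axes share the GFP shRNA arrays. Anxa2, Anxa3 and S100a6 lie near the line of equal difference, and Anxa1 and Anxa6 are at fitted values, since neither was detected with Prmt6 shRNA2 or GFP shRNA.

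**Figure D4:**
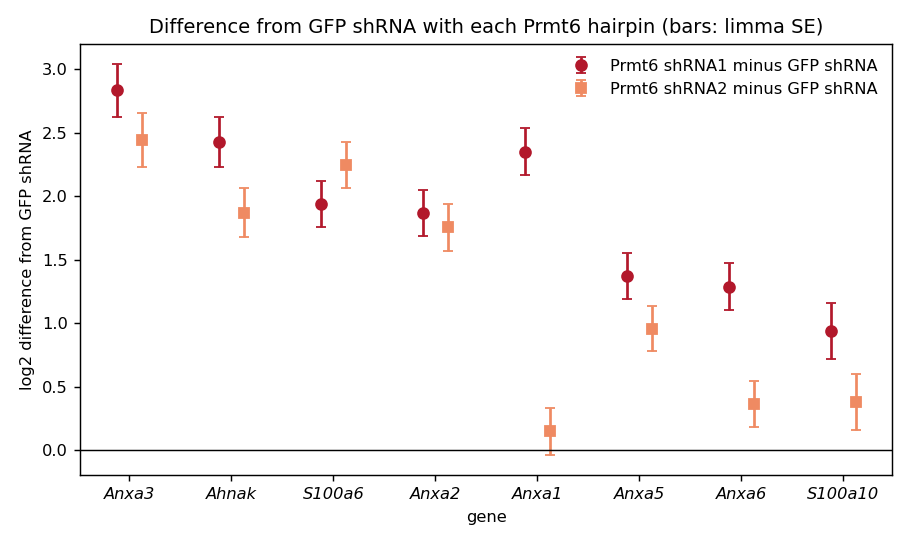
Log2 difference from GFP shRNA (vertical axis) with Prmt6 shRNA1 (circles) and with Prmt6 shRNA2 (squares) for each gene, ordered by the average of both, with limma standard errors as bars. S100a6 is the one gene with the square above the circle on these probes. The points of Anxa1 and Anxa6 are fitted values, and their gaps have only a lower limit because neither was detected with Prmt6 shRNA2 or GFP shRNA.

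Against GFP shRNA, each hairpin gave its own set of values that share the control arrays. With Prmt6 shRNA1 the median over the 8 genes was 1.91 (1.62 with undetected genes at their limits), and 7 were called where 1.32% of all genes were. All 8 had both Prmt6 shRNA1 arrays above the GFP shRNA arrays, as had 23% of all genes. With Prmt6 shRNA2 the median was 1.36 and 4 were called, namely Anxa2, Anxa3, S100a6 and Ahnak, where 1.04% of all genes were. All 8 had both Prmt6 shRNA2 arrays above the GFP shRNA arrays, as had 32.2% of all genes. Among the 8, Anxa1 and Anxa6 were detected in neither of these groups, so their order is only one of undetected readings. These counts describe values that helped to choose the names. Leaving out each array in turn leaves 1 array in a group. The median was then 1.81 to 2.00 with Prmt6 shRNA1 and 1.27 to 1.42 with Prmt6 shRNA2. The number called, among the 8 genes and among all genes, depended on which array was left out.

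Genes related to the group were counted in the same fit, from lists by function. None of 6 other annexins was measured; Anxa7 was detected on 1 array. Of 13 other S100 genes 2 were measured and 0 passed by limma for both Prmt6 hairpins over GFP shRNA, where 1 had an unadjusted p under 0.05. S100a1, a regulator of calcium handling in muscle, had intensities of 92.9 and 176.8 on the Prmt6 shRNA1 arrays, 391.1 and 296.8 on the Prmt6 shRNA2 arrays, and 96.0 and 107.7 on the GFP shRNA arrays. S100a1 was detected on 3 arrays, none with GFP shRNA. It was thus kept only through Prmt6 shRNA arrays, so it had to be higher there and its tests against GFP shRNA give no independent support. With Prmt6 shRNA2 it was at least 2.11-fold of GFP shRNA (limma adjusted p = 0.0438). For both hairpins the fitted value was 1.16 ± 0.19 (adjusted p = 0.0538), or at least 1.35-fold. Prmt6 shRNA2 minus Prmt6 shRNA1 was 1.30 ± 0.22 and did not pass (limma adjusted p = 0.128). The call with Prmt6 shRNA2 was kept in 7 of 18 alternatives, and among the fits without a single array only without Prmt6 shRNA2 replicate 1 (limma adjusted p = 0.0134), with 0.0796 to 0.33 without each of the others. S100a16 was at 0.01 ± 0.51.

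The plasminogen system meets this group at the cell surface, where the complex of Anxa2 and S100a10 binds plasminogen. Of 10 listed genes 4 were measured and 1 passed as higher, Plaur, the urokinase receptor, against 1.5% of all genes. Its intensities were 997.1 and 2094.9 on the Prmt6 shRNA1 arrays, 786.2 and 591.8 on the Prmt6 shRNA2 arrays, and 243.7 and 157.4 on the GFP shRNA arrays. All 4 Prmt6 shRNA arrays were above both GFP shRNA arrays. The log2 difference was 2.55 ± 0.20 (limma adjusted p = 0.0102), and the call was lost without GFP shRNA replicate 1 or 2 (adjusted p = 0.0605 and 0.147) and with the replicate block (0.0783) and with no filter on dim probes (0.0571), among 17 alternatives of which 13 kept it. Plat, Plau and Plg were not measured.

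Of 16 membrane repair genes 7 were measured and 1 passed as higher, Myof, which encodes the ferlin myoferlin. Its intensities, on a second-series probe, were 1057.4 and 1780.1 on the Prmt6 shRNA1 arrays, 1020.9 and 681.9 on the Prmt6 shRNA2 arrays, and 514.1 and 472.2 on the GFP shRNA arrays. The log2 difference with both hairpins was 1.31 ± 0.16 (limma adjusted p = 0.0325), or 2.47-fold. It was lost without each array except Prmt6 shRNA2 replicate 1 (0.0216 without it, 0.0809 to 0.266 without each of the others). The list's median was 0.17. Of 5 Ahnak partners 2 were measured and did not pass by limma. Ahnak2 was at a fitted 1.11 ± 0.20 (adjusted p = 0.0637) and the signal mediator Smad3 at 1.31 ± 0.27 (adjusted p = 0.0876). Ahnak2 was detected on 2 arrays, none with GFP shRNA. It was thus kept only through Prmt6 shRNA arrays, and its limit was at least 1.19-fold. Among 23 C2-domain binders of calcium and phospholipids 3 were measured and 0 passed by limma, with a median of 0.23, and the brightest, Doc2a and Esyt1, were at -0.02 ± 0.18 and 0.27 ± 0.17. Of 9 listed partners and cargo of S100a10, 2 were measured and 0 passed: Hltf at 0.01 ± 0.19 and Dlc1 at -0.22 ± 0.29.

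The arrays measured RNA of whole cultures, so more cells of a kind and more RNA per cell cannot be told apart. Of 9 trophectoderm markers 6 were measured, and their summed normalized intensity was 15610 and 17490 on the Prmt6 shRNA1 arrays, 4634 and 4802 on the Prmt6 shRNA2 arrays, and 2122 and 2365 on the GFP shRNA arrays. On the Prmt6 shRNA1 arrays most of this sum was keratin signal. Deposited intensities there were 5656.3 and 8057.1 for Krt8, against 732.8 and 1896.6 for Tfap2c and 283.1 and 271.5 for Cdx2. The keratin genes Krt7, Krt8 and Krt18 of this list passed the limma test as lower with Prmt6 shRNA2 than with Prmt6 shRNA1, and they were at 3.26, 2.77 and 3.18 with both hairpins over GFP shRNA. The transcription factors Cdx2 and Tfap2c of the same list were at 0.47 ± 0.30 and 0.21 ± 0.18 and did not pass (limma adjusted p = 0.549 and 0.657). Elf5, Eomes and Hand1 were not detected. The transcription factor Gata3 of that list passed at a fitted 1.77 ± 0.21 (limma adjusted p = 0.0291), or at least 1.1-fold. Gata3 was detected on 2 arrays, none with GFP shRNA. It was thus kept only through Prmt6 shRNA arrays and had to be higher there. Of 10 endoderm markers 4 were measured, with sums of 2385 and 3103 on the Prmt6 shRNA1 arrays, 4124 and 4292 on the Prmt6 shRNA2 arrays, and 1594 and 1813 on the GFP shRNA arrays. All 4 were above 0 with both hairpins over GFP shRNA, with a median of 1.08. Of these, 1 passed, Gata4 at 1.16 ± 0.17 (limma adjusted p = 0.0416). Afp, Ttr, Foxa2 and Lama1 were not detected. The 8 stem cell markers summed to 24320 and 24650 on the Prmt6 shRNA1 arrays, 20970 and 22600 on the Prmt6 shRNA2 arrays, and 28440 and 34230 on the GFP shRNA arrays. Of these 8, 0 passed by limma as higher or lower in any comparison, so no fall of these markers is established. The part of these marker lists in the differences of the annexin and S100 genes was not tested. Of 10 fibroblast markers 9, including Col1a1, Col1a2 and Thy1, were detected on no array, as were 4 of 5 blood cell markers.

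The patterns most like 4 of these genes over the 6 arrays are given as a description, among 1216 genes with an SD of at least 0.5 log2 units. For Anxa3 they were Ripk4, a kinase of epidermal differentiation (r = 0.997), Edn1, the endothelin precursor (r = 0.996), and Tceal5 (r = 0.992). Anxa2 was most like Sct, the secretin precursor (r = 0.998), Tceal5 (r = 0.997) and Tgfbr2, a TGF-beta receptor (r = 0.992). Ahnak was most like Cstb, a cathepsin inhibitor (r = 0.996), Fam107b (r = 0.993) and Plec, the cytoskeletal linker plectin (r = 0.991). S100a10 was most like Cdkn2b, a cyclin-dependent kinase inhibitor (r = 0.993), Arl8a (r = 0.983) and Tmcc3 (r = 0.971). Within the group, r was 0.993 between Anxa2 and Anxa3, 0.777 between Anxa2 and S100a10 and 0.963 between Anxa1 and Anxa6. These are correlations over 6 arrays in 3 groups, and the points share the arrays' normalization and the contrast between groups.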

How the data were processed

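Per the labels, biotinylated cRNA from total RNA was made for Illumina bead arrays. Per the file headers, the deposited table held a mean bead intensity and a detection score for each probe and array. Many deposited intensities lay below 0, so background had been subtracted before deposit, and the score, which rises with intensity, was read as 1 minus the detection p-value. The authors also deposited processed log2 values. The submitters' processing notes name lumi, whose version and method are not given in the sources used here.

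The neqc function corrected background and quantile-normalized the intensities (limma 3.58.1, R 4.3.3, offset 16). Probes detected (p under 0.01) on at least 2 of 6 arrays were kept, 9138 of 46643, and the brightest kept probe stood for each of 6539 genes (symbols from RefSeq, GRCm38.p6). One mean per hairpin group was estimated over all arrays (lmFit, eBayes), with Benjamini-Hochberg adjustment over all genes and calls below 0.05. A lower limit on a fold sets the brighter group's mean against, per array of the undetected group, the lowest detected signal or its own value, whichever is higher. The chain was tested on simulated data. An exact test of 2 arrays against 2 cannot reach 0.05, so none was used.

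The members, lists and alternatives were chosen with earlier results of these data known. Every member was named. Of each related list, up to 4 called genes were named, or else the 2 brightest measured; the 3 most alike patterns were taken by Pearson r. Prmt6 was named as the target, and marker and undetected genes beyond this rule were named after their values were seen.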

Additional observations from a re-analysis of the deposited data

Results flagged for a closer look

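Anxa1 passed limma's test of a difference between the effects of the Prmt6 hairpins, with a fitted log2 difference of -2.21 for Prmt6 shRNA2 minus Prmt6 shRNA1 (adjusted p = 0.027). It was detected on both Prmt6 shRNA1 arrays and on no Prmt6 shRNA2 or GFP shRNA array, so it entered the test only through the group where it is high. With detection required on all 6 arrays it was not tested. The call was kept in 8 of 18 alternatives.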

How the results depend on the processing

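Each comparison of the 8 measured genes was recomputed under up to 19 alternatives, of which Prmt6 shRNA2 replicate 2 left out with the first series alone was chosen after seeing the data. With no filter on dim probes Anxa4 entered as well. Those medians are therefore over 9 genes, while each of the 8 kept its value. The median log2 difference with both Prmt6 hairpins (1.53) was 1.46 to 1.60 with each array left out, 1.25 with no filter on dim probes, 1.95 with detection on all 6 arrays (6 genes), 1.37 with the authors' values, 1.97 with no further background correction, 1.63 with median scaling, 1.45 with an offset of 50, 1.31 with the first series and 1.29 with the added alternative. With Prmt6 shRNA1 (1.91) it was 1.81 to 2.00 with each array left out, 1.68 with the authors' values, 1.83 with an offset of 50, 1.81 with the mean of probes, and 1.62 with the first series and with the added alternative. With Prmt6 shRNA2 (1.36) it was 1.27 to 1.42 with each array left out, 0.96 with no filter, 1.81 with detection on all arrays, 1.26 with the authors' values, 1.83 with no further background correction and 1.25 with the added alternative. For Prmt6 shRNA2 minus Prmt6 shRNA1 (-0.49) it was -0.50 to -0.42 with each array left out, -0.42 with no filter, -0.41 with the added alternative, and -0.40 with detection on all arrays, the mean of probes and the first series. The number called with both hairpins (6) was 0 to 6 with each array left out and 3 with the added alternative. With Prmt6 shRNA1 (7) it was 0 to 5 with each array left out, and 4 with no further background correction and with the added alternative. With Prmt6 shRNA2 (4) it was 0 to 4 with each array left out, and 0 with no filter, no further background correction, every probe tested, only the groups compared and the added alternative. Between the Prmt6 hairpins (1) it was 0 to 1 with each array left out, and 0 with no filter, detection on all arrays (where Anxa1 was no longer tested), no further background correction, only the groups compared and the added alternative. Among other annexins and S100 genes, the count with both hairpins (0) was 0 to 1 with each array left out and 1 with median scaling, an offset of 50, the mean of probes, the first series and a trended robust variance, and between the hairpins (0) it was 0 to 1 and 1 with the first series. With the replicate block, 0 of the 8 genes were called in every comparison by limma. For both hairpins over GFP shRNA, 0 of all 6539 genes were then called. Same-numbered arrays deviated with correlations of -0.648, 0.124 and -0.359 between groups. These correlations take in every difference between replicates, so they cannot decide whether same-numbered arrays were handled together. No called value changed sign. Apart from the change in the genes behind a median, the cause of these changes was not tested.

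With 2 arrays a group, calls rest on few arrays: 109 genes of the whole table were called with both hairpins, 464 without Prmt6 shRNA2 replicate 1 and 25 without Prmt6 shRNA2 replicate 2. Anxa1, Anxa4 and Anxa6 lay at or below background in most arrays, so their folds are limits or are not given. Only the groups compared could not be run for the averaged contrast.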
